A study of Mus musculus with 8 samples.

Results

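The 30 genes described here encode enzymes and membrane proteins of the lysosome, and were followed in mouse liver across 2 diets and 2 feeding times. They were chosen by name: 9 cathepsins, 7 glycan hydrolases, 4 lipid hydrolases or activators, the peptidase Tpp1, 6 membrane or cholesterol-export proteins, 2 proton pump genes and the regulator Tfeb. All 30 were measured, among 20165 features tested on the array, 12885 of them with a gene symbol. RNA came from whole liver of male C57BL/6 mice, bought at 5 weeks of age and divided into weight-matched groups. They ate a normal diet (ND, 4.8% fat) or the high-fat diet D12231 (HFD, 58% fat) for 3 or 9 months, and the labels name no genetic change or drug. Each of the 4 groups had 2 mice, and RNA of each mouse was labelled with Cy3 and hybridised to its own 1-colour Agilent array. The description of ND 3 months replicate 1 also mentions NASH, an inflamed fatty liver, while its title and diet label give the normal diet, under which it was kept.

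Lysosomes are acidic organelles in which proteins, glycans and lipids delivered by endocytosis, phagocytosis and autophagy are broken down. A proton pump, the V-ATPase, acidifies them, most of their hydrolases arrive through the mannose 6-phosphate pathway, and the transcription factor TFEB can raise many of their genes together through a palindromic element around CACGTG. In liver they clear lipoprotein cholesterol and lipid droplets in hepatocytes, and the resident macrophages, the Kupffer cells, are rich in them.

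The letters of that element were looked for in the 250 bases before the RefSeq start of each gene (assembly GRCm38.p6), on both strands, and 26 of the 30 members had an entry. CACGTG was present for 8 of these 26 genes (30.8%) and for 6.86% of 27025 genes in the table. The longer TCACGTGA was present for 4 (15.4%, against 0.907%), and GTCACGTG for 7 (26.9%, against 2.11%). Both longer motifs contain CACGTG, so the 3 counts overlap. Genes with CACGTG were Ctsa, Ctsd, Ctsl, Gla, Glb1, Naglu, Lamp1 and Mcoln1. These stretches are printed 5′ to 3′ on the strand of the gene, with CACGTG in capitals, because the results turn on these genes: Mcoln1 (chr8:3500269-3500518, plus strand), which holds the motif and rose on HFD, Gla (chrX:134601006-134601255, minus strand), which holds it and was not higher on HFD, and Hexa (chr9:59539290-59539539, plus strand), the member with the smallest p over both durations, in whose window these letters do not occur.
Mcoln1: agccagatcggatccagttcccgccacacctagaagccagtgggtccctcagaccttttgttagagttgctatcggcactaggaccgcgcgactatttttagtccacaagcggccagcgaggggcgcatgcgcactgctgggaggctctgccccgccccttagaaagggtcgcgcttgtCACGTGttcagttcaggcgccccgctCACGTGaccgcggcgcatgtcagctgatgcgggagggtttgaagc
Gla: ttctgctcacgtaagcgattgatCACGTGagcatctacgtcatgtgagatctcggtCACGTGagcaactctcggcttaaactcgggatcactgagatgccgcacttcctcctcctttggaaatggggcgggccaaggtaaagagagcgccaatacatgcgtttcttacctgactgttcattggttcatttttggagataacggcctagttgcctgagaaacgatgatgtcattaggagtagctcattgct
Hexa: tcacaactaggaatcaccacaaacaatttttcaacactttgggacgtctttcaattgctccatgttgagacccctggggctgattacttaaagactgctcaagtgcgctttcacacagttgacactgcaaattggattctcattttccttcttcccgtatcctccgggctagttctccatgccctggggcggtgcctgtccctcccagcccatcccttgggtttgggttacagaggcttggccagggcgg
Of the 6 members past the threshold over both durations, 5 had an entry and 1, Mcoln1, held CACGTG.

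Levels are log2 intensities relative to the 75th percentile of the probes on the same array, so that 0 is the level of that percentile, and the brightest detected probe stands for a gene. That percentile corresponded to intensities of 482 to 597 for ND mice and 185 to 428 for HFD mice, the dimmest being HFD 9 months replicate 2 (185). Between 40.6% and 54.1% of spots were well above background. Each slide carried a single diet, so diet and slide cannot be told apart. Row 1 of a slide held mice fed for 3 months and row 2 those fed for 9 months. All 15 hepatocyte markers were well above background on all 8 arrays. Some arrays stood apart. ND 9 months replicate 1 had a summed level of 17 macrophage and Kupffer cell markers of 483, where the other 7 ranged from 77.5 to 284. HFD 9 months replicate 2, the dimmest array, had the highest mean log2 level of 5 neutrophil markers (3.08, the others 0.18 to 2.39). In whole liver, fewer cells of a type and less RNA per cell cannot be told apart.

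Changes are log2 fold changes ± SE from limma, n = 2 mice per group, and a gene was called when its p, adjusted over all 20165 features by the Benjamini-Hochberg procedure, was under 0.05. On HFD at 3 months 1 of the 30 genes was called, Hexa, and at 9 months 2 were, Hexa and Atp6v0d2, all higher on HFD. Over both durations, in a fit with duration as a covariate, 6 were called and all were higher on HFD: Hexa and Gusb, which cut sugars from glycans, the acid lipase gene Lipa, the protease gene Ctsk, the calcium channel gene Mcoln1 and the proton pump subunit gene Atp6v0d2. By the same limma test 0 of the 30 were called lower in these 3 comparisons, where 1, 2 and 1 were lower at an unadjusted p under 0.05. Of all features 5.18% were called at 3 months (1.51% higher and 3.67% lower), 8.28% at 9 months (3.56% higher and 4.73% lower) and 22.1% over both durations (10.3% higher and 11.8% lower). Of the features with a symbol 13.1% were called higher over both durations. Summed over both directions, the counts of members were near this background and are not a result about the list. An unadjusted p under 0.05 was reached by 9, 8 and 12 members in these comparisons and by 26.3%, 28.7% and 38.8% of all features. With 1 array left out, the counts of members and of all features called both changed. Without ND 3 months replicate 1, limma called 2 members over both durations, Hexa and Atp6v0d2, beside 2073 of all features. Without ND 9 months replicate 1 it called 5, beside 3851, and without HFD 9 months replicate 2 it called 8, beside 5949. At a single duration such a fit leaves 1 mouse in a group, and its counts are not a result about the members.

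More members lay above than below 0. The fold change was above 0 for 20 of 30 genes at 3 months, 20 at 9 months and 21 over both durations, where 49.5%, 51.1% and 50.3% of all features were. The median fold change of the 30 was 0.24 at 3 months, 0.35 at 9 months and 0.2 over both, against -0.01, 0.02 and 0 for all features and 0.11, 0.12 and 0.11 for features with a symbol. Every HFD array lay above every ND array of the same duration for 16 members at 3 months and 17 at 9 months, and below for 5 and 4. Among all features 35.6% and 28.5% lay above and 35.4% and 26.1% below in this way. Across all 8 arrays, 9 members were higher on every HFD than on every ND array (11.5% of all features) and 1, Neu1, was lower (14% of all features).

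**Figure D1:**
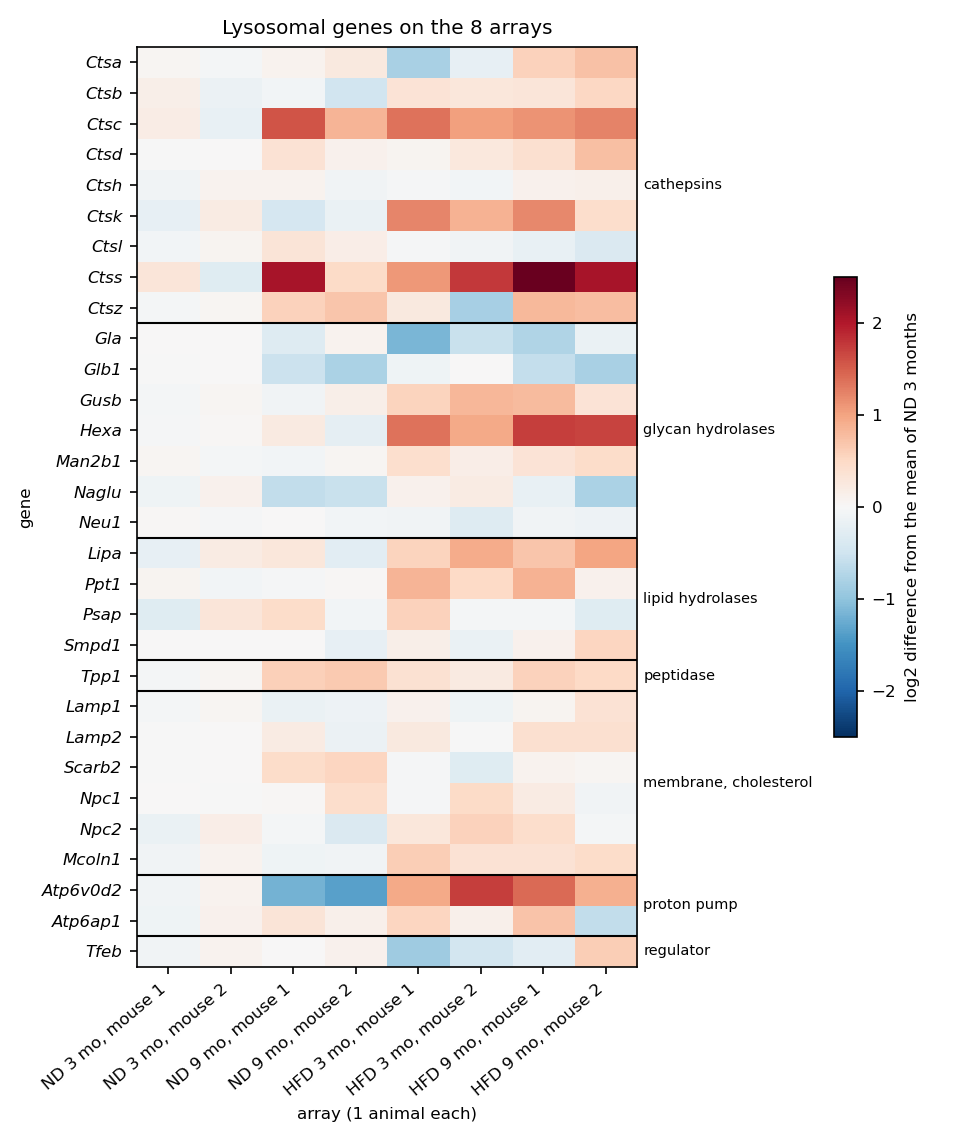
Each cell is the log2 level of a gene (rows, grouped by role) on 1 array (columns, 1 mouse each) minus the mean of the 2 ND 3-month arrays, with red for higher and blue for lower. Hexa is red on the 4 HFD arrays, while Ctss and Ctsc are also red on ND 9 months replicate 1.

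The glycan hydrolases held the clearest member. Hexa encodes the α subunit of β-hexosaminidase, the enzyme that removes N-acetylhexosamine from gangliosides and other glycans. Its log2 level was 3.2 and 3.25 on the ND 3-month arrays, 3.44 and 3.0 on the ND 9-month arrays, 4.58 and 4.17 on the HFD 3-month arrays and 4.95 and 4.92 on the HFD 9-month arrays. All HFD arrays were above all ND arrays, and the ND groups overlapped each other. Hexa rose by 1.15 ± 0.23 at 3 months (2.22-fold, adjusted p = 0.0467), 1.72 ± 0.23 at 9 months (3.28-fold, adjusted p = 0.0138) and 1.43 ± 0.19 over both durations (adjusted p = 0.00372). The call at 3 months was lost when any of the 4 arrays of that duration was left out. Such fits leave 1 mouse in a group and called fewer of all features too, so the loss is not particular to Hexa. The rise was then 1.12 and 1.18 without ND replicate 1 or 2 and 0.95 and 1.35 without HFD replicate 1 or 2. The call at 9 months was lost only without ND 9 months replicate 2 (1.5 ± 0.26), among the cases with 1 array left out. The rise over both durations was called under all 20 alternatives, with values from 1.29 to 1.59 and adjusted p from 0.000535 to 0.0154.

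Gusb, the β-glucuronidase gene, had log2 levels of 2.33, 2.42, 2.29 and 2.53 on the ND arrays (3 months first) and 2.93, 3.21, 3.17 and 2.71 on the HFD arrays. The diets did not overlap, by a narrow margin at 9 months. Gusb rose by 0.61 ± 0.16 over both durations (1.53-fold, adjusted p = 0.0315). It was not called at either duration alone (0.7 ± 0.23 and 0.53 ± 0.23, adjusted p = 0.124 and 0.185). With 1 array left out, the rise kept its call only without HFD 9 months replicate 2 (0.72 ± 0.13, adjusted p = 0.0134), and in the other 7 cases it was 0.54 to 0.68 with adjusted p from 0.0536 to 0.0996.

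Gla, the α-galactosidase A gene whose loss causes Fabry disease, was the member with the largest negative difference at 3 months. Its log2 level was 8.91 on both ND 3-month arrays, 8.58 and 8.99 on the ND 9-month arrays, 7.77 and 8.35 on the HFD 3-month arrays and 8.15 and 8.74 on the HFD 9-month arrays. HFD arrays were below ND arrays at 3 months and overlapped them at 9 months. The difference was -0.85 ± 0.3 at 3 months (adjusted p = 0.145) and -0.34 ± 0.3 at 9 months (adjusted p = 0.493), neither past the threshold. Man2b1, an α-mannosidase gene, was at 4.46 to 4.58 on the ND and 4.69 to 4.98 on the HFD arrays, with no overlap and a difference over both durations of 0.36 ± 0.13 (adjusted p = 0.0781). The sialidase gene Neu1 ran from 4.68 to 4.76 on ND and from 4.41 to 4.66 on HFD, a difference of -0.14 ± 0.12 (adjusted p = 0.424). The β-galactosidase gene Glb1 and the heparan sulfate hydrolase gene Naglu differed more by duration than by diet, as given below, with diet differences over both durations of -0.04 ± 0.13 and 0.12 ± 0.16.

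**Figure D2:**
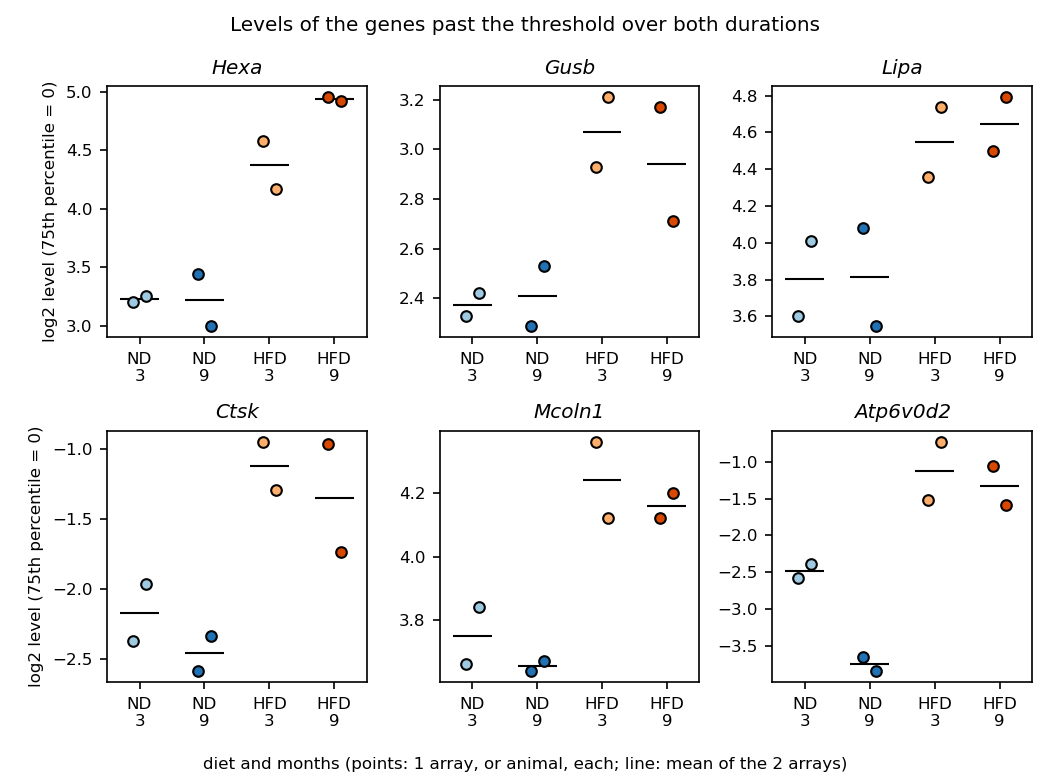
Points are log2 levels (0 is the 75th percentile of the array) of single mice on ND or HFD at 3 or 9 months, and lines are means of 2. In each of the 6 genes every HFD point lies above every ND point, and the vertical axes start at different values.

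Among the lipid hydrolases, Lipa encodes lysosomal acid lipase, which frees cholesterol and fatty acids from cholesteryl esters and triglycerides. Its log2 level was 3.6, 4.01, 4.08 and 3.55 on the ND arrays (3 months first) and 4.36, 4.74, 4.5 and 4.79 on the HFD arrays. Each HFD array was above each ND array, while the durations overlapped within a diet. Lipa rose by 0.79 ± 0.19 over both durations (1.73-fold, adjusted p = 0.0258), with 0.74 ± 0.28 at 3 months and 0.83 ± 0.28 at 9 months, neither called alone (adjusted p = 0.162 and 0.115). The call over both durations was lost without ND 3 months replicate 1 (0.71 ± 0.22, adjusted p = 0.0841), ND 3 months replicate 2 (0.88 ± 0.21, adjusted p = 0.0512), ND 9 months replicate 2 (0.67 ± 0.19, adjusted p = 0.0685) or HFD 3 months replicate 2 (0.72 ± 0.21, adjusted p = 0.0615).

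Ppt1, which encodes the thioesterase that strips palmitate from proteins, was at -1.34 to -1.22 on the ND and -1.18 to -0.42 on the HFD arrays. Its difference of 0.58 ± 0.19 over both durations (adjusted p = 0.0674) did not pass, although the arrays of the diets did not overlap. Smpd1, the acid sphingomyelinase gene, differed by -0.01 ± 0.22 at 3 months and 0.43 ± 0.22 at 9 months (adjusted p = 0.981 and 0.259). Psap, whose product is cut into the saposins that help sphingolipid hydrolases, differed by 0.26 ± 0.33 and -0.37 ± 0.33, with overlapping arrays at both durations.

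Of the 9 cathepsins 1 was called, Ctsk, a collagen-degrading cysteine protease best known from osteoclasts. Its log2 level was -2.37 and -1.96 on ND at 3 months, -2.58 and -2.33 on ND at 9 months, -0.95 and -1.29 on HFD at 3 months and -0.96 and -1.73 on HFD at 9 months. The diets did not overlap. Ctsk rose by 1.08 ± 0.21 over both durations (2.11-fold, adjusted p = 0.0141). The single durations gave 1.04 ± 0.32 and 1.11 ± 0.32 (adjusted p = 0.108 and 0.0818). Without ND 3 months replicate 1 the rise was 1.0 ± 0.24 (adjusted p = 0.0509), and with the authors' deposited value table in place of the scanner signal it was 0.46 ± 0.15 (adjusted p = 0.0543), and after normexp background correction 0.52 ± 0.15 (adjusted p = 0.0414). Ctsk was dim, though well above background on all 8 arrays, and the size of its rise is uncertain. Over its 20 alternatives the rise ran from 0.46 to 1.22 and adjusted p from 0.00671 to 0.0543.

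Ctss, a protease that trims the invariant chain of MHC class II and is typical of macrophages and other antigen-presenting cells, had log2 levels of 2.64 and 2.02 on ND at 3 months and 4.4 and 2.81 on ND at 9 months. On HFD it was at 3.42 and 4.1 at 3 months and at 4.81 and 4.39 at 9 months. At 9 months ND replicate 1 lay level with HFD replicate 2, while ND replicate 2 lay far below. The difference was 1.43 ± 0.55 at 3 months (adjusted p = 0.17), 1.0 ± 0.55 at 9 months (adjusted p = 0.287) and 1.21 ± 0.37 over both (adjusted p = 0.055), none past the threshold. Without ND 9 months replicate 1 the difference over both durations was 1.57 ± 0.26 with adjusted p = 0.0123, the lowest of a range up to 0.147 over its 20 alternatives, 5 of which called it.

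Ctsc, the dipeptidyl peptidase gene whose product activates serine proteases of immune cell granules, had log2 levels of 2.03 and 1.64 on ND at 3 months, 3.41 and 2.68 on ND at 9 months, 3.19 and 2.87 on HFD at 3 months and 2.95 and 3.07 on HFD at 9 months. Only the ND 3-month arrays were low, and both HFD 9-month values fell between the ND 9-month values. It differed between diets by 1.2 ± 0.3 at 3 months (adjusted p = 0.0716) and by -0.04 ± 0.3 at 9 months (adjusted p = 0.947). The interaction of diet and duration was -1.24 ± 0.42 (unadjusted p = 0.0245, adjusted p = 0.588).

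Levels of macrophage and Kupffer cell markers are given beside these genes. Their summed level was 96.9 and 77.5 on ND at 3 months, 483 and 155 on ND at 9 months, 173 and 140 on HFD at 3 months and 182 and 284 on HFD at 9 months, and 15 to 17 of the 17 measured markers (of 18 listed) were well above background on an array. The list was lowest in the ND 3-month mice, as Ctss and Ctsc were, and highest in ND 9 months replicate 1. In that group replicate 1 exceeded replicate 2 by 1.65 in the mean of the list, by 1.59 in Ctss and by 0.73 in Ctsc, all on the log2 scale. The same differences were 0.75, 0.63 and 0.4 in ND 3 months. On HFD the list and Ctss differed between mice in opposite directions, by 0.23 and -0.68 at 3 months and by -0.58 and 0.42 at 9 months, and Ctsc by 0.33 and -0.12. Ctss thus shared the direction of the list in the ND groups and not in the HFD groups, while Ctsc shared it in every group. Each of these differences rests on 2 mice, and the relation of the markers to either gene was not tested. By limma 0 of the 17 markers were called at 3 months (9 had an unadjusted p under 0.05, all higher on HFD), 0 at 9 months (0 at an unadjusted p under 0.05) and 0 over both durations (4). Among all features 26.3%, 28.7% and 38.8% had an unadjusted limma p under 0.05 in these comparisons, in either direction. A second list held markers of the lipid-associated macrophages that appear in fatty liver and adipose tissue. It had 2 of 10 genes called higher at 3 months, 5 at 9 months and 7 over both, Trem2 among them (2.62 ± 0.34 and 4.41 ± 0.34 at 3 and 9 months). Of all features 1.51%, 3.56% and 10.3% were called higher. Of these 10 genes, 7 to 9 were well above background on an ND array, 8 on each HFD 3-month array and 10 on each HFD 9-month array. Gpnmb was well above background on 3 arrays and Mmp12 on 2. Both passed the filter only through the HFD 9-month group, where they were high, so a call of either is not a result. Counts and list means that include such genes rest partly on values not well above background. The part of macrophages in the differences of the lysosomal genes was not tested.

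**Figure D3:**
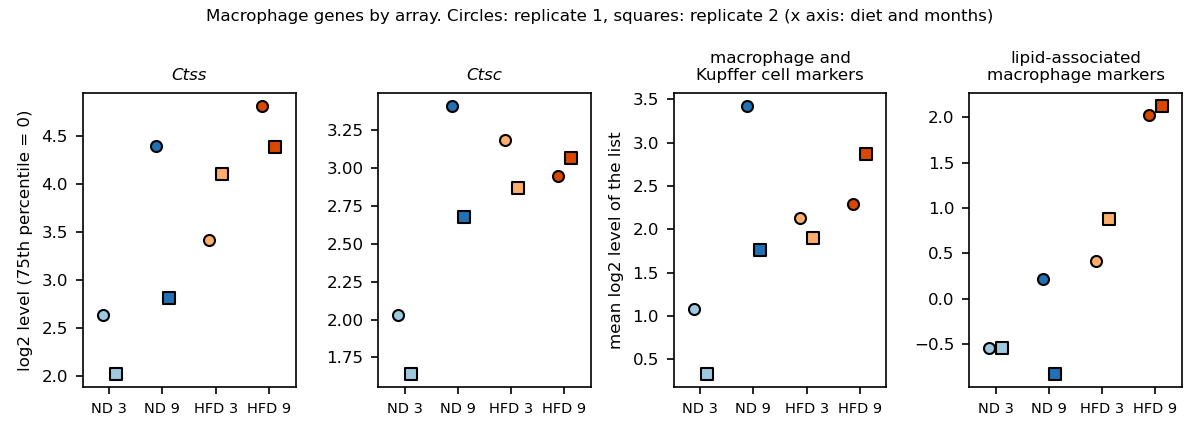
Log2 levels of Ctss and Ctsc (left panels) and mean log2 levels of 17 macrophage and Kupffer cell markers and 10 lipid-associated macrophage markers (right panels) are plotted by diet and months, 1 symbol per mouse. In all 4 panels the circle of ND 9 months, replicate 1, lies above the square of replicate 2, by 1.59, 0.73, 1.65 and 1.05 from left to right. Of the 10 lipid-associated macrophage markers, 7 to 9 were well above background on an ND array.

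The other 6 cathepsins showed small or uneven differences, and 0 of them were called in a comparison of diets. Ctsb, an abundant cysteine protease, was at 7.28, 6.99, 7.07 and 6.66 on ND (3 months first) and 7.47, 7.41, 7.43 and 7.65 on HFD. All HFD arrays lay above all ND arrays, yet the difference over both durations (0.49 ± 0.16, adjusted p = 0.0687) missed the threshold. Ctsl, its relative that also acts outside the lysosome, went the other way at 9 months, with 8.02 and 7.86 on ND and 7.5 and 7.34 on HFD (-0.52 ± 0.17, adjusted p = 0.114). At 3 months it differed by -0.05 ± 0.17. The aspartic protease gene Ctsd differed by 0.25 ± 0.14 and the aminopeptidase gene Ctsh by 0.03 ± 0.12 over both durations. Ctsz, a carboxypeptidase gene, gave -0.07 ± 0.24, with HFD 3 months replicate 2 (4.99) below the other 7 arrays (5.76 to 6.62).

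Ctsa encodes a carboxypeptidase that also protects β-galactosidase and the sialidase in a shared complex. Its main probe was at 6.92 and 6.81 on ND and at 6.06 and 6.66 on HFD at 3 months, then at 6.96 and 7.1 on ND and at 7.45 and 7.59 on HFD at 9 months. HFD arrays were thus below ND arrays at 3 months and above them at 9 months (-0.51 ± 0.24 and 0.49 ± 0.24, adjusted p = 0.235 and 0.231). A second, dimmer probe of Ctsa gave higher means on HFD at both times (0.34 and 0.88), so the probes disagree at 3 months. Of the 5 members with more than 1 detected probe, Ctsd and Lamp2 had probes that disagreed at 9 months, where the second probe gave -0.46 and -0.07 and the main probe 0.34 and 0.38. The second probe of Atp6ap1 gave 0.43 at 3 months and -0.83 at 9 months.

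**Figure D4:**
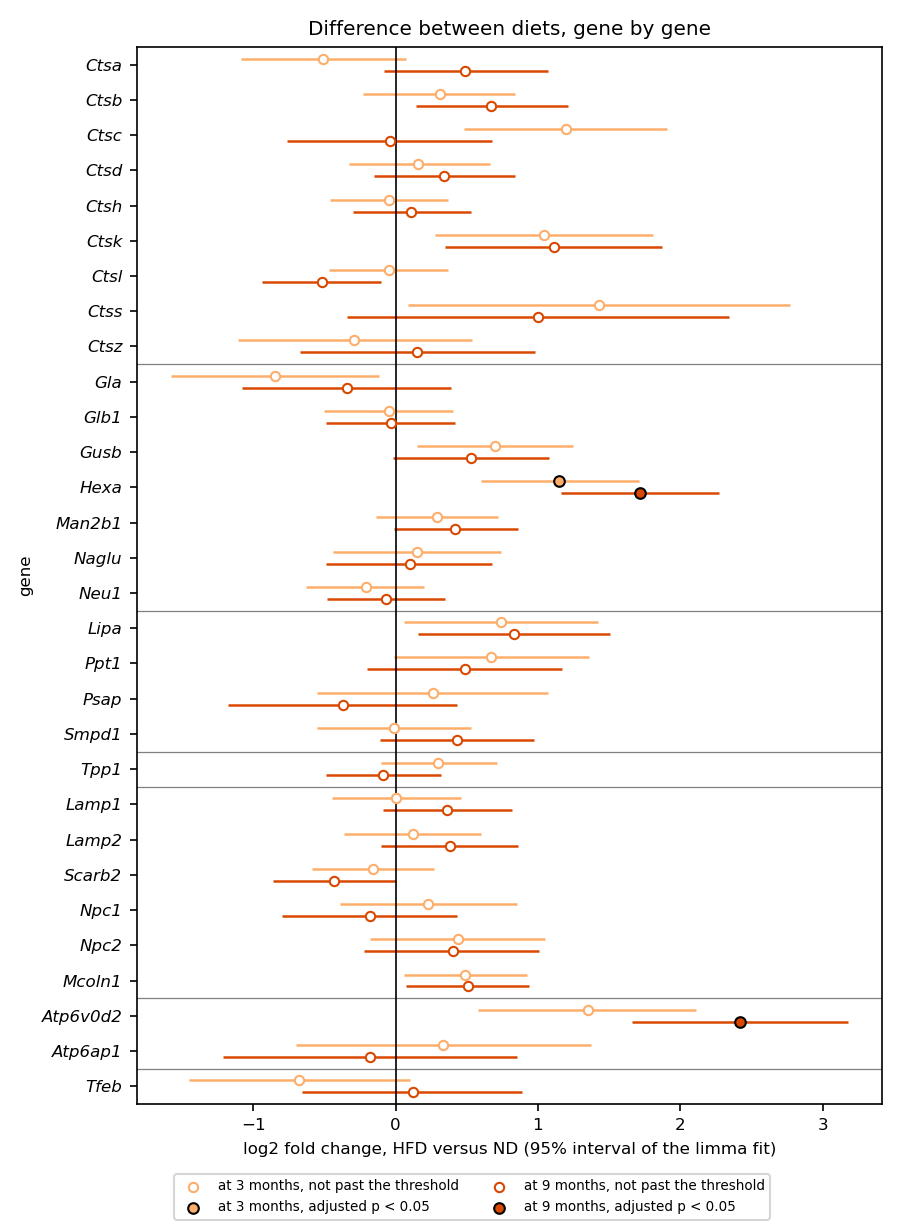
Points are log2 fold changes of HFD against ND at 3 months (light) and 9 months (dark) with 95% intervals of the limma fit, n = 2 mice per group, and filled points passed the threshold. Filled points are Hexa at both durations and Atp6v0d2 at 9 months, and most intervals include 0.

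Mcoln1, which encodes the calcium channel of the lysosomal membrane, was the called member of the membrane group. Its log2 level was 3.66, 3.84, 3.64 and 3.67 on the ND arrays (3 months first) and 4.36, 4.12, 4.12 and 4.2 on the HFD arrays. The diets did not overlap, and values within a diet were close. Mcoln1 rose by 0.5 ± 0.12 over both durations (1.41-fold, adjusted p = 0.0284), from 0.49 ± 0.18 and 0.51 ± 0.18 at 3 and 9 months (adjusted p = 0.153 and 0.129). The call held with 1 array left out in 2 of 8 cases, without HFD 3 months replicate 2 (0.55 ± 0.14, adjusted p = 0.0406) and without HFD 9 months replicate 2 (0.48 ± 0.12, adjusted p = 0.0303), and in the other 6 the rise was 0.45 to 0.54 with adjusted p from 0.0511 to 0.101.

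The other membrane and cholesterol-export genes were not called. Npc2, which hands cholesterol to the exporter NPC1, was at 3.01 to 3.54 on ND and 3.33 to 3.95 on HFD, a difference of 0.42 ± 0.17 over both durations (adjusted p = 0.114). Npc1 itself differed by 0.02 ± 0.19. Lamp1 and Lamp2, the major glycoproteins of the membrane, differed by 0.0 ± 0.19 and 0.12 ± 0.2 at 3 months and by 0.36 ± 0.19 and 0.38 ± 0.2 at 9 months, when HFD arrays lay above ND arrays for both. Scarb2, the receptor that carries glucocerebrosidase to lysosomes, was at 2.7, 2.72, 3.16 and 3.25 on ND and at 2.69, 2.4, 2.8 and 2.75 on HFD (3 months first). It was lower on each HFD array than on the ND arrays of its duration (-0.43 ± 0.18 at 9 months, adjusted p = 0.173). The peptidase gene Tpp1 differed by 0.3 ± 0.17 and -0.09 ± 0.17.

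Atp6v0d2 encodes the d2 subunit of the membrane sector of the proton pump, known from osteoclasts and macrophages. Log2 levels of Atp6v0d2 were -2.57 and -2.38 on ND at 3 months, -3.65 and -3.83 on ND at 9 months, -1.52 and -0.74 on HFD at 3 months and -1.06 and -1.59 on HFD at 9 months. ND 9-month mice were lowest, and the HFD groups overlapped each other. It rose by 2.42 ± 0.32 at 9 months (adjusted p = 0.0131) and by 1.88 ± 0.29 over both durations (adjusted p = 0.00625), with 1.35 ± 0.32 at 3 months (adjusted p = 0.0625). The gene was dim: its probe was well above background on 7 of 8 arrays, and on 1 of 2 in the ND 9-month group, so that the size of the difference at 9 months is uncertain. The other 29 members were well above background on all 8 arrays. A second probe of Atp6v0d2, above background on 4 arrays and on neither ND 9-month array, gave 1.31 at 3 months. Smaller values came from other signals of the same arrays. The authors' deposited value table gave 1.09 ± 0.21 at 9 months (adjusted p = 0.0234) and 0.92 ± 0.16 over both durations (adjusted p = 0.00639), and normexp correction gave 1.3 ± 0.23 (adjusted p = 0.0184) and 1.08 ± 0.18 (adjusted p = 0.00569). Over all alternatives adjusted p ran from 0.0112 to 0.0723 at 9 months and from 0.00509 to 0.022 over both durations. The call at 9 months was lost without ND 9 months replicate 2 (2.33 ± 0.41), a fit that leaves 1 mouse in that group.

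Atp6ap1, an accessory subunit gene of the pump, was lowest on HFD 9 months replicate 2 at 0.99, the other arrays ranging from 1.49 to 2.31, and differed by 0.33 ± 0.43 and -0.18 ± 0.43 at the 2 durations. Of 17 other V-ATPase subunit genes, 0 were called at 3 or 9 months (5 and 4 had an unadjusted p under 0.05) and 5 over both durations, all higher on HFD. That is 29.4% of them, where 10.3% of all features and 13.1% of those with a symbol were called higher, and 22.1% of all features in either direction. Their median over both durations was 0.34, against 0 for all features and 0.11 for features with a symbol. Called subunit genes included Atp6v0b (0.6 ± 0.14, adjusted p = 0.0232), Atp6v0a2 (0.62 ± 0.15, adjusted p = 0.0249) and the accessory gene Atp6ap2 (0.48 ± 0.12, adjusted p = 0.0281).

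Tfeb, the regulator, was dim and uneven on HFD. It stood at log2 levels of -1.24, -1.07, -1.14 and -1.05 on the ND arrays (3 months first) and -2.05, -1.61, -1.41 and -0.54 on the HFD arrays. HFD values lay below the ND values at 3 months and on both sides of them at 9 months. The difference was -0.68 ± 0.32 at 3 months (adjusted p = 0.236) and 0.12 ± 0.32 at 9 months (adjusted p = 0.843). Of 17 genes that sense nutrients at the lysosome or regulate its genes, 0 were called at either duration (1 and 4 at an unadjusted p under 0.05). Over both durations 4 were called, all higher (23.5%). Of all features 10.3% were called higher (13.1% of those with a symbol) and 22.1% in either direction. The 4 genes were not tested as a set. They included the folliculin partners Fnip1 (0.47 ± 0.14, adjusted p = 0.0446) and Fnip2 (0.96 ± 0.27, adjusted p = 0.0419) and the Ragulator subunit Lamtor5 (0.52 ± 0.13, adjusted p = 0.0278).

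Cathepsins and the 11 lipid and glycan hydrolases were set side by side. The median fold change of the cathepsins was 0.16 at 3 months, 0.34 at 9 months and 0.25 over both durations, and that of the hydrolases was 0.26, 0.42 and 0.21. Called genes numbered 0, 0 and 1 among cathepsins and 1, 1 and 3 among hydrolases, where 5.18%, 8.28% and 22.1% of all features were called. All of these genes were higher on HFD, and 1.51%, 3.56% and 10.3% of all features were called higher. An unadjusted p under 0.05 was reached by 3, 3 and 3 cathepsins and by 4, 2 and 6 hydrolases, and by 26.3%, 28.7% and 38.8% of all features. Within the hydrolases, the 4 lipid genes had medians of 0.47 and 0.46 at 3 and 9 months and the 7 glycan genes 0.15 and 0.1, so Hexa stood well apart from the rest of its own class. The classes spread widely, from -0.51 to 1.43 for cathepsins and from -0.85 to 1.15 for hydrolases at 3 months, and the difference between classes was not tested. Which class had the higher median turned with quantile normalization at 3 and at 9 months, and with 1 array left out. It turned at 3 months without ND 3 months replicate 1 (0.16 for cathepsins, 0.05 for hydrolases) or HFD 3 months replicate 1 (0.27 and 0.16). It turned at 9 months without ND 9 months replicate 1 (0.42 and 0.37) or HFD 9 months replicate 1 (0.51 and 0.11). Over both durations it turned without HFD 3 months replicate 2 (0.23 and 0.32) or HFD 9 months replicate 2 (0.17 and 0.25).

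Differences between feeding times did not pass the threshold for any member. By limma 0 of 30 were called between 9 and 3 months on ND, where 6 had an unadjusted p under 0.05, and 0 on HFD, where also 6 did (1.04% and 0.00992% of all features were called, and 15.9% and 15.5% had an unadjusted p under 0.05). Glb1 was at 1.41 and 1.43 at 3 months and 0.88 and 0.62 at 9 months on ND, and at 1.31 and 1.43, then 0.83 and 0.6, on HFD. In both diets the 9-month mice lay below the 3-month mice, by -0.67 ± 0.19 on ND and -0.65 ± 0.19 on HFD (adjusted p = 0.166 and 0.224). Naglu was at 2.38 and 2.58, then 1.87 and 1.92, on ND and at 2.58 and 2.68, then 2.3 and 1.68, on HFD, with differences of -0.59 ± 0.24 and -0.64 ± 0.24. Atp6v0d2 on ND (-1.27 ± 0.32, adjusted p = 0.133) and Ctsa on HFD (1.16 ± 0.24, adjusted p = 0.155) also had differences above 1 in size, as did Ctsc and Ctss on ND (1.22 ± 0.3 and 1.27 ± 0.55, adjusted p = 0.129 and 0.335) and Ctsz on HFD (1.08 ± 0.34, adjusted p = 0.251). The interaction of diet and duration was called for 0 members, with 2 at an unadjusted p under 0.05, and for 0 of all 20165 features (7.62% at an unadjusted p under 0.05). Row on the slide and the age of the mice, all bought at 5 weeks, changed with duration and cannot be told apart from it.

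Other lysosomal lists, also tested gene by gene over all features, were mixed. Of all features 5.18% were called at 3 months, 8.28% at 9 months and 22.1% over both durations. Of 29 other hydrolases and activators, 2 were called higher at 3 months and 2 at 9 months, Ctse among them each time, and 1 lower at 9 months, the progranulin gene Grn (-1.51 ± 0.3, adjusted p = 0.0359). The probe of Ctse was well above background on 5 of 8 arrays. It passed the filter through the HFD groups, where its level was high, so its calls are not a result and no fold is given. Grn stood at 6.1 and 6.12 on ND at 9 months and from 4.18 to 5.0 on the other 6 arrays. Over both durations 4 were called higher and 1 lower, the nuclease gene Dnase2a (-1.88 ± 0.38, adjusted p = 0.0153).

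Of 20 other membrane proteins, 0 were called at 3 months (8 at an unadjusted p under 0.05) and 2 were called higher at 9 months. These were the tetraspanin gene Cd63 and Ctns, the cystine exporter gene. Cd63 was at 1.46, 1.54, 1.85 and 2.06 on ND (3 months first) and at 2.16, 3.02, 4.61 and 4.3 on HFD. The HFD 9-month mice were far above all others. Cd63 rose by 2.5 ± 0.31 at 9 months (adjusted p = 0.0114), and Ctns by 0.8 ± 0.17 (adjusted p = 0.0449). Of 24 genes of sorting to the lysosome, 3 were called higher and 1 lower over both durations (16.7%, against 22.1% of all features). At either duration alone 0 were called (4 and 5 at an unadjusted p under 0.05). Gnptab, which encodes the enzyme that starts the mannose 6-phosphate tag, rose by 0.85 ± 0.14 (adjusted p = 0.00765), and Vps41, of the fusion complex HOPS, by 0.58 ± 0.12 (adjusted p = 0.0162). Among 5 measured cathepsin inhibitors, the stefin B gene Cstb rose at 9 months (1.08 ± 0.21, adjusted p = 0.0335). Over both durations Cstb was not called (0.68 ± 0.21, adjusted p = 0.0532), and the single inhibitor called, Stfa2, was lower on HFD, with a probe well above background on 5 of 8 arrays. Stfa2 passed the filter only through the ND groups, where it was high, so its call is not a result. Of 22 autophagy genes 0 were called at either duration (0 and 2 at an unadjusted p under 0.05), and Wipi2 alone over both (-0.86 ± 0.22, adjusted p = 0.0335).

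**Figure D5:**
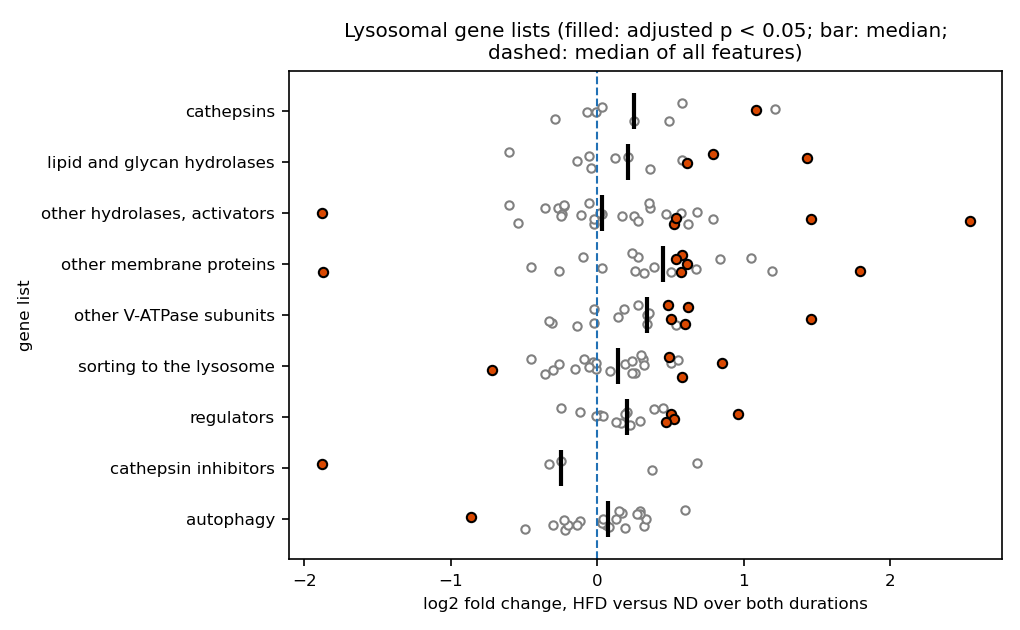
Each point is the log2 fold change of a gene, HFD against ND over both durations, by gene list, with filled points past the threshold, bars at list medians and the dashed line at the median of all features. Medians lie between -0.25 (5 cathepsin inhibitors) and 0.45 (20 other membrane proteins), and each list spreads to both sides of 0.

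Some markers of other cells moved with diet beside the called members. Of all features 1.51% were called higher and 3.67% lower at 3 months, 3.56% and 4.73% at 9 months, and 10.3% and 11.8% over both durations. Of 11 stellate cell and fibroblast markers 4 were called higher at 3 months, 5 at 9 months and 9 over both, Col1a1 most of all (2.86 ± 0.38 and 3.34 ± 0.38 at 3 and 9 months). Their summed level, most of it from Dcn, ran from 75.6 to 107 on ND and from 105 to 141 on HFD. Their mean log2 level ran from -0.48 to 0.07 on ND and from 0.89 to 1.3 on HFD. Of 15 hepatocyte markers, 0 were called at 3 months (5 at an unadjusted p under 0.05, all lower), 1 was lower at 9 months, Tat, and 3 were lower over both. Their summed level ran from 5950 to 7070 on ND and from 4420 to 6580 on HFD. Among other cells, over both durations 2 of 3 measured adipocyte markers (of 7 listed) were called higher (Fabp4 by 2.57 ± 0.39, adjusted p = 0.00593). Adipoq, Lep, Plin1 and Retn of that list were not among the features tested. Of 6 measured T and NK cell markers (of 10 listed), 3 were called lower (Cd4 by -2.62 ± 0.27, adjusted p = 0.00186). The other 3 had fold changes above 0, 1 of them at an unadjusted limma p under 0.05. Summed levels ran from 7.94 to 21.9 on ND and 37 to 78.1 on HFD for the adipocyte list. For the T and NK cell list they ran from 163 to 231 on ND and 28.1 to 60.9 on HFD. Most of this second sum came from Cd4 alone, at log2 levels of 7.24 to 7.78 on ND and 4.44 to 5.73 on HFD. Of 10 endothelial markers 2 were called higher and 1 lower, and of 4 cholangiocyte markers 1 higher and 1 lower. Of 5 neutrophil markers 1 was called lower, Elane, while 3 had fold changes above 0 and the median was 1.35. Of 3 B cell markers 0 were called by limma (1 at an unadjusted p under 0.05). The part of cell composition in the rises of Hexa, Ctsk, Lipa, Gusb, Mcoln1 and Atp6v0d2 was not tested.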

How the data were processed

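Liver RNA of 8 male mice was measured on 8 single-colour arrays, 2 in each of 4 groups taken from the diet labels. The deposited scanner files hold the processed intensity (background-subtracted spot brightness) made by Agilent Feature Extraction 10.7.1.1, per the submitters' processing notes and the file headers. The deposited value table, on a log2 scale by its values, served only as an alternative, and its scaling is not given in the sources used here. Each of its columns had a median of 7.14. On each array its values ranked as the median spot signal of the scanner files did (Spearman rho of 1 after rounding). No other sample's columns were used (0 found).

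Control spots and outlier flags were left out, the log2 intensity was scaled to the 75th percentile of each array, and spots of a probe were averaged. A probe was kept where both mice of some group (1 or more) had it well above background (25801 of 55681). Accessions were matched to RefSeq symbols (19752 symbols), and the brightest kept probe stood for a gene, which gave 20165 features, of which 7280 without a symbol stayed as accessions. Group means were fitted with limma 3.58.1 in R 4.3.3 (lmFit, eBayes, 4 residual degrees of freedom plus 2.33 prior), and p-values were adjusted by the Benjamini-Hochberg procedure with a threshold of 0.05. The comparison over both durations came from a second fit with duration as covariate. The fit was tested on simulated data. Figures were drawn in Python 3.11.15 with matplotlib 3.10.9.

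The members and lists were chosen with earlier results of these data known. All members are named. Of other lists, up to 3 genes with the smallest p among those called, and above background on all arrays compared, are named with values, except some results that are not reported here. Ctse and Stfa2, outside this rule, were named after their values were seen. Alternatives covered normalization, background, filters, probe choice, moderation, array weights, arrays fitted, the replicate number as block and leaving out each array. With 2 mice per group the number of arrays limits the precision, and p-values measure the spread between these mice. Genes of the same family can share probe sequence, which was not checked.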

Additional observations from a re-analysis of the deposited data

Results flagged for a closer look

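Ctsa stood out because the HFD values of its main probe lay below the ND values at 3 months and above them at 9 months. The difference between the durations was 1.0 ± 0.34 on the log2 scale (limma, unadjusted p = 0.024, adjusted p = 0.584), so it did not pass the correction. The second probe of Ctsa gave higher means on HFD at both durations (0.34 and 0.88).

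Tpp1 stood out in the same way with the opposite order, higher on HFD at 3 months and lower at 9 months. The difference between the durations was -0.39 ± 0.24 (limma, unadjusted p = 0.15, adjusted p = 0.74). Of all features, 840 of 20165 (4.17%) had HFD arrays on opposite sides of the ND arrays at the 2 durations.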

How the results depend on the processing

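No value of the 6 called members changed sign under any alternative. For each of them every HFD array lay above every ND array, so leaving out an array could not reverse the sign. Of all 30 members, 21 kept their direction under every alternative at 3 months, 21 at 9 months and 23 over both durations. The counts of members called depended on the settings. With 1 array left out, 1 group holds a single mouse and the number of all features called changed too. Counts from those fits are therefore not a result about the members. At 3 months 1 member was called, against 2 after normexp background correction with quantile normalization, 2 with the authors' value table, 0 without the filter on dim probes, 6 with array weights, 2 with only the 4 arrays compared and 0 to 1 with 1 array left out. At 9 months 2 were called, against 4 after normexp, 0 without the filter, 1 with probes above background on all arrays (which leaves out Atp6v0d2), 1 with array weights, 0 with only the 4 arrays compared and 0 to 3 with 1 array left out. Over both durations 6 were called, against 10 after normexp, 3 without the filter, and 2 (without ND 3 months replicate 1) to 8 (without HFD 9 months replicate 2) with 1 array left out. Between durations the 0 calls became 3 on ND with array weights and 0 to 2 on HFD with 1 array left out (2 without HFD 9 months replicate 1).

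The median of the cathepsins at 3 months was 0.34 with quantile normalization, 0.3 with the authors' table and 0.31 with the mean of probes (0.16 to 0.27 with 1 array left out). At 9 months it was 0.47 after normexp, 0.45 with the authors' table and 0.15 with the mean of probes (0.17 to 0.51), and over both durations 0.38 with quantile normalization (0.17 to 0.31). The median of the lipid and glycan hydrolases at 3 months was 0.31 with quantile normalization, 0.3 after normexp and 0.34 with the authors' table (0.05 to 0.42 with 1 array left out). At 9 months it was 0.25 after normexp and 0.2 with the authors' table (0.11 to 0.42), and over both durations 0.26, 0.28 and 0.26 with quantile normalization, normexp and the authors' table (0.14 to 0.32). The order of the 2 class medians turned at each duration: at 3 months with quantile normalization and with the mean of probes (0.31 for cathepsins, 0.26 for hydrolases), at 9 months with quantile normalization (0.42 and 0.4), normexp and the authors' table, over both durations with array weights (0.19 and 0.2), and in each case without some single arrays. The causes were not tested.

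Arrays of the same number in different groups did not deviate together (r from -0.0181 to 0.137 across genes), so they share only a number. With the replicate number as block, 0 members were called at 3 months, 2 at 9 months and 6 over both durations, and 803, 1358 and 4203 features. Counts over all features were 1045 at 3 months and 1670 at 9 months, against 3972 and 276 with array weights, 2780 and 0 with only the 4 arrays compared, and 68 and 274 without the filter, which moved the median of all features to 0.25 and 0.3. The share of higher among called features was 29.2% and 42.9%, against 19.1% and 30.7% without the filter, and 11.5% to 38.7% and 31.6% to 46.9% with 1 array left out. With array weights it was 24.3% at 9 months, and with only the 4 arrays compared 41.8% at 3 months. A percentile taken after dropping outlier spots, chosen after seeing the data, left the counts of members at 1, 2 and 6. The slide as block was not run for diet, since each slide held 1 diet.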
